A study of Mus musculus with 6 samples.

Results

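Genes for potassium channel subunits were followed in RNA sequencing of whole cerebellum from mouse pups. Members were all rows whose gene symbol begins with Kcn, followed by lower-case letters and a digit, and which held 10 or more counts summed over the 6 libraries. The table listed 98 such rows among 41228, and 90 of them were members. The other 8 held fewer counts and are named only (Kcna10, Kcne3, Kcnj1, Kcnk15, Kcnk16, Kcnk18, Kcnmb3 and Kcnmb4os1). Of the 90 members, 4 were noncoding transcripts by name (Kcnq1ot1, Kcnab3os, Kcnd3os and Kcnmb4os2), and the others fell into 20 groups by the letters after Kcn.

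The 6 pups were of the C57BL/6 strain and 6 days old, with 3 labelled wild type and 3 labelled SnoN cKO, a conditional knockout of SnoN, the product of Skil. SnoN is a transcriptional regulator that binds Smad proteins, and the series concerns its part in the proliferation of granule neuron precursors. The labels do not name the Cre line, the cells that lost the gene or the deleted exons, nor whether the wild type animals carried an allele of the cross. Of the 3 animals in each group, 1 was labelled female and 2 male. Each library was single-end and came from the cerebellum of 1 labelled animal. Because whole tissue was sequenced, fewer cells of a type and less RNA per cell cannot be told apart in any of these values.

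Potassium channels let potassium leave or enter the cell and so set the resting potential, the shape of the action potential and the rate of firing. Voltage-gated (Kv) channels open on depolarization, calcium-activated channels follow intracellular calcium, inward rectifiers (Kir) hold the membrane near rest and include the channels opened by G proteins, and tandem pore (K2P) channels carry leak currents. Auxiliary subunits alter how the pore-forming subunits reach the membrane and how they gate. In the young cerebellum granule neurons acquire A-type and leak currents as they mature, Purkinje cells acquire the fast Kv currents that allow high firing rates, and glia take up potassium through Kir channels.

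The unit of all levels is CPM, a gene's count per 1000000 counts of its library, after TMM scaling of the library totals, which evens out differences in composition. Totals ran from 12605870 to 17757711 counts per library, so 3 counts, taken as the limit that a count of 0 allows, stood for 0.176 to 0.235 CPM. Values in a series are for wild type 1, 2 and 3 and then SnoN cKO 1, 2 and 3. Skil, the targeted gene, measured 89.5, 87.5 and 88.9 CPM in the wild type libraries against 76.0, 74.7 and 77.5 CPM in the SnoN cKO libraries. Its log2 fold change was -0.22 (SE 0.04, edgeR adjusted p = 0.637), with every SnoN cKO library below every wild type library. The labelled sex went against the data in 2 libraries. SnoN cKO 1, labelled female, held 2.74 CPM of Xist and 89.8 CPM of the Y-linked Ddx3y, whereas SnoN cKO 2, labelled male, held 2536 CPM of Xist and no Ddx3y count. Both carry the same genotype label, so the genotype groups do not depend on which of these labels is right. SnoN cKO 2 stood apart in a further way. The summed CPM of 10 choroid plexus markers was 221 in that library, against 3829 and 4083 in the other SnoN cKO libraries and 2227 to 3980 in wild type. Every tested marker of 3 further lists had a negative log2 fold change, with library sums that overlapped for brainstem and meninges and did not for the nuclei. Those of brainstem and midbrain (8 tested of 15 listed, all 8 negative, median log2 fold change -1.09, 4 at an unadjusted p under 0.05) summed to 63.0, 77.6 and 55.3 CPM in wild type libraries against 46.4, 39.0 and 61.5 CPM in the SnoN cKO group. Those of cerebellar nuclei and unipolar brush cells (7 of 7 negative, median -0.41, 5 at an unadjusted p under 0.05) ran from 235 to 273 CPM in wild type and from 149 to 221 CPM in SnoN cKO. Meningeal markers (6 of 6 negative, median -0.16) ran from 1419 to 1724 and from 1283 to 1563 CPM. SnoN cKO 2 was lowest of the 6 libraries in the choroid plexus, brainstem, nuclei and oligodendrocyte lists. The markers of cortical cell types were present in all libraries: granule precursor markers summed to 1022 to 1302 CPM, maturing granule neuron markers to 1300.0 to 1529 CPM and Purkinje cell markers to 1800.0 to 2108 CPM. None of the 10 choroid plexus markers was at 0 in all libraries.

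The promoters shown here belong to Kcne2 and Kcnj13, the channel genes known from choroid plexus that were lowest together in SnoN cKO 2, to Kcnd2 and Kcnj10, members of over 100 CPM whose SnoN cKO libraries all lay below wild type, and to Kcne1l, the member whose SnoN cKO libraries all lay above it. They come from RefSeq on build GRCm38.p6, cover 250 bases before to 50 bases after each listed start, and are printed 5′ to 3′ on the strand of the gene. The capitals mark each CG dinucleotide, the motif searched, which reads the same on both strands. Kcne2 has 2 listed starts. Their positions are chr16:92292139-92292438 (plus strand) and chr16:92295366-92295665 (plus strand) for Kcne2, chr1:87394680-87394979 (minus strand) for Kcnj13, chr6:21215096-21215395 (plus strand) for Kcnd2, chr1:172340960-172341259 (plus strand) for Kcnj10 and chrX:142306149-142306448 (minus strand) for Kcne1l.
Kcne2 start A: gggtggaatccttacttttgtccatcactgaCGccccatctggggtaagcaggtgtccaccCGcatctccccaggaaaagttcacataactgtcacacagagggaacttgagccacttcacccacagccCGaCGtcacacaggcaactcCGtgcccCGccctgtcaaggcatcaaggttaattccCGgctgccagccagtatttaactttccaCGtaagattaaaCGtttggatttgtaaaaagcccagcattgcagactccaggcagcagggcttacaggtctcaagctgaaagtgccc
Kcne2 start B: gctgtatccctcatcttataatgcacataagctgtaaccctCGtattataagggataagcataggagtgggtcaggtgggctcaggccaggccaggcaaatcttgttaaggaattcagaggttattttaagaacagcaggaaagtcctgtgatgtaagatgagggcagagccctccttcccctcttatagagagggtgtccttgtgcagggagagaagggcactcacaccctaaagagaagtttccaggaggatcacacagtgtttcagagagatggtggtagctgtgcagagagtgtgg
Kcnj13: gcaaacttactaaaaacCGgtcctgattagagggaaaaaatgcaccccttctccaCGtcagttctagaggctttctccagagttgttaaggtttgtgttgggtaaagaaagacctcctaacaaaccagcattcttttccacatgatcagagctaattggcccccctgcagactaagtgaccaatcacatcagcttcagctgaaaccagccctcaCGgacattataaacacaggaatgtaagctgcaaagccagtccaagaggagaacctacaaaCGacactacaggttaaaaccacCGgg
Kcnd2: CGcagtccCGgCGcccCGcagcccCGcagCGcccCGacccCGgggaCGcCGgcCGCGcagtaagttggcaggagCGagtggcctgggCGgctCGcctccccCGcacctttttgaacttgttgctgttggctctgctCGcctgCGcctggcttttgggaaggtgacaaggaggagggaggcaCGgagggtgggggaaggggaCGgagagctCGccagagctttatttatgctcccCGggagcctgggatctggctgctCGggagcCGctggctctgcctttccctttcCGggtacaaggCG
Kcnj10: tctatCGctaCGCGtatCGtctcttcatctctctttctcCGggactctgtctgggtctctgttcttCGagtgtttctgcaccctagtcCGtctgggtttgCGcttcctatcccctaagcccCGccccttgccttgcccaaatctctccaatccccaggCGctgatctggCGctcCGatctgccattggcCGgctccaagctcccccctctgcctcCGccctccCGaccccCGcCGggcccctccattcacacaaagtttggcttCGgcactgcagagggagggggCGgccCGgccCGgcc
Kcne1l: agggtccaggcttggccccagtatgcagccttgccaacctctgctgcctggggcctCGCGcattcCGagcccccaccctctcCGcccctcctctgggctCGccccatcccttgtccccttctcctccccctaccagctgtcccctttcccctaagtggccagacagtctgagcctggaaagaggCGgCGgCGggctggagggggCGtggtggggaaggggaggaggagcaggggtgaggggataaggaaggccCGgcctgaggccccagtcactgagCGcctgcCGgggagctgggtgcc

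The Kcnd2 promoter held 26 CG dinucleotides, and 16.87% of 32851 RefSeq promoters of the same length held as many or more. The Kcnj10 promoter held 21 (24.8%). Kcne1l had 12 (39.59% of promoters had as many or more) and Kcnj13 had 5 (61.96%). The Kcne2 promoters had 9 (45.78%) and 1 (94.57%). RefSeq promoters were found for 64 of the 90 members, 88 promoters in all, with a median of 9.5 CG dinucleotides against 7 for all promoters. The 48 promoters of members at 10 CPM or more had a median of 9, and the 40 of members under 10 CPM a median of 10, so CG content did not separate the abundant members from the others. This is a description of sequence and says nothing about methylation, which was not measured.

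The family was broadly present in the P6 cerebellum. By mean CPM over the 6 libraries, 6 members reached 100 CPM, 36 lay from 10 to under 100, 36 from 1 to under 10 and 12 under 1. The 5 members with most counts, Kcnc1, Kcnd2 and Kcnd3 among them, held 32.55% of the CPM of all members. CPM favours long transcripts, so levels between genes are compared per kilobase (kb) of exon, with lengths from GENCODE M21 (GRCm38) matched by symbol for all 90 members. Each length joins the exons of all annotated transcripts of a gene. It can exceed the length of the transcripts expressed here, so levels and shares per kb depend on the annotation. On that scale the order changed. Of the members named here, Kcnk1, a K2P channel, led at 34.7 ± 2.02 CPM per kb (SD, n = 6), followed by the MinK-related subunit Kcne1l at 31.8 ± 2.28 and Kcnd2 at 24.5 ± 0.933 (SD, n = 6 each). Kcnc1 at 20.1 ± 1.34, the glial Kir channel Kcnj10 at 19.2 ± 1.81 and Kcnip3 at 18.9 ± 0.368 CPM per kb came next and did not differ from each other beyond their spread. Kcnk1 and Kcne1l likewise differed by little more than their spread. Kcnk1, ninth by CPM, has an exon length of 2235 bases, against 9458 for Kcnc1. Kcnk2, Kcna1, Kcnj3 and Kcnd3 lay between 12 and 12.6 CPM per kb, within their spread of each other.

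**Figure D1:**
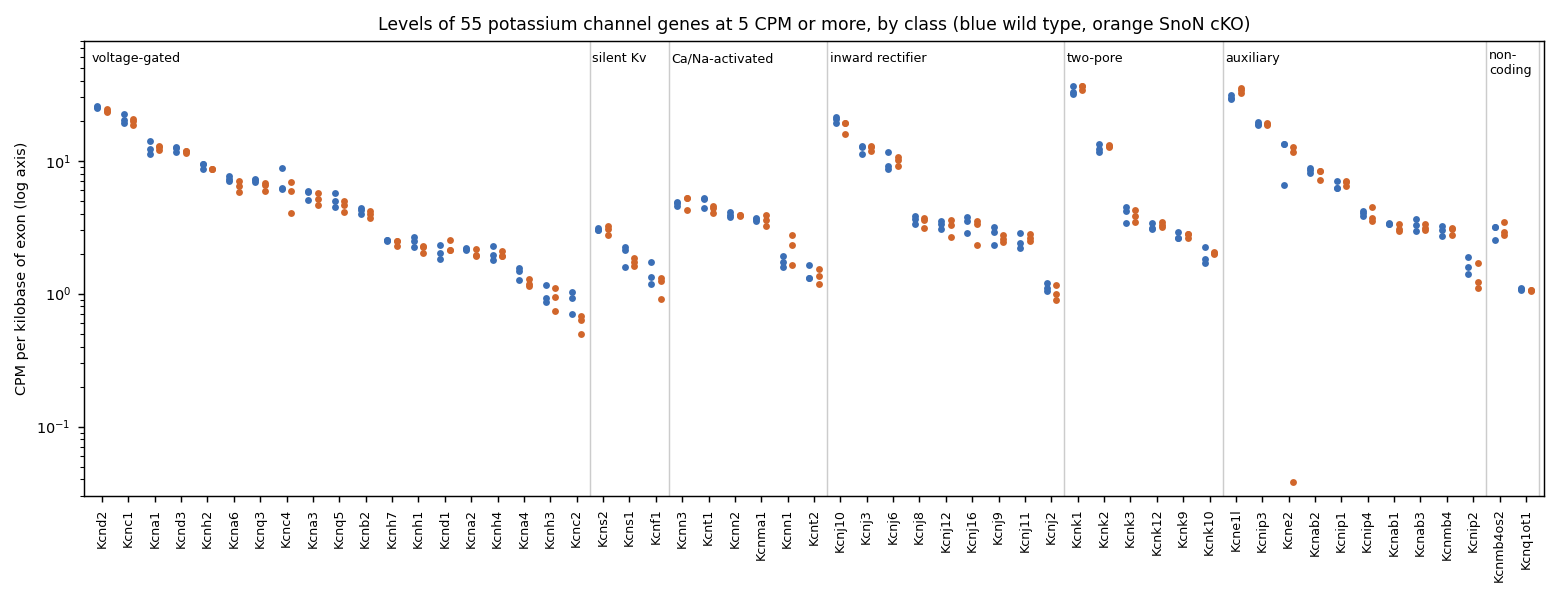
Level of 55 of the 59 members at 5 CPM or more in CPM per kb of exon on a log axis, grouped by class and ordered by level. Points are single libraries, wild type in blue and SnoN cKO in orange, and Kcne2 has a single point far below the others, SnoN cKO 2.

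The make-up of the family by class depended on the scale. In wild type, the 29 pore-forming Kv members made up 54.05% ± 0.797 of member CPM (SD, n = 3) but 41.74% ± 0.909 per kb. The 14 auxiliary subunits made up 11.51% ± 0.437 by CPM and 21.42% ± 0.891 per kb, and the 11 K2P channels 8.448% ± 0.430 by CPM and 13.94% ± 0.781 per kb. The 14 Kir channels made up 12.18% ± 0.317 by CPM and 14.64% ± 0.516 per kb. Calcium- and sodium-activated channels, a class in which Kcnu1 (Slo3) was counted by family and not by its gating, took 8.062% by CPM and 4.857% per kb. The electrically silent Kv subunits, which work only with Kv2 partners, took 1.564% by CPM and 2.121% per kb. The noncoding transcripts took 4.185% by CPM and 1.283% per kb. In SnoN cKO the shares by CPM were 53.07% ± 0.224 for pore-forming Kv, 11.72% ± 0.353 for auxiliary, 9.107% ± 0.191 for K2P and 12.12% ± 0.335 for Kir (SD, n = 3). The 90 members summed to 2528, 2569 and 2647 CPM in wild type libraries and 2550.0, 2442 and 2482 CPM in SnoN cKO libraries, with means of 2582 ± 60.5 and 2491 ± 54.3 (SD, n = 3 each). The groups overlapped, since SnoN cKO 1 lay above wild type 1.

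Reads of overlapping genes are a limit on some of these levels. In GENCODE M21, exons of 31 of the 90 members overlap an exon of another gene, and the kit used for the libraries does not mark strand. Kcnj13 overlaps Gigyf2 on the opposite strand, and Kcnd3, Kcnmb4 and Kcnq1 overlap Kcnd3os, Kcnmb4os2 and Kcnq1ot1. How the authors' counting treated such reads is not given.

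No potassium channel gene passed the test of genotype. In edgeR's quasi-likelihood test over 15457 genes, 0 genes had a Benjamini-Hochberg adjusted p under 0.05 (0%), and 0 of the 82 members tested did; the smallest adjusted p of a member was 0.637. At an unadjusted p under 0.05, 5 of the 82 members were lower in SnoN cKO, 6.10%, where 4.47% of all genes were lower. The count higher in SnoN cKO was 1 member, 1.22%, where 3.21% of all genes were higher. In the same terms, the 3 libraries of SnoN cKO all lay below the 3 of wild type for 6 members, 7.32%, where 6.73% of all genes did, and all lay above for 1 member, 1.22%, where 6.95% of all genes did. With all 6 libraries, the counts of lower members were thus near those of all genes. Leaving out a single library, the number at an unadjusted p under 0.05 was lowest at 2 without wild type 2 (2.44%, where 4.31% of all genes were) and highest at 10 without SnoN cKO 3 (12.3%, where 9.68% of all genes were). Without wild type 1, 2 or 3, all SnoN cKO libraries lay below wild type for 15, 11 and 16 members. These were 18.1%, 13.4% and 19.3%, where 11.1%, 9.99% and 14.3% of all genes did. Without SnoN cKO 1, 2 or 3 the numbers were 14, 8 and 12. These were 16.9%, 9.76% and 14.8%, where 12.4%, 10% and 12.6% of all genes did. The number above ran from 2 to 9 (2.41% to 10.8%, where 10.8% to 14.2% of all genes did). DESeq2 and limma-voom also gave 0 members with an adjusted p under 0.05. They had 4 and 6 members at an unadjusted p under 0.05 (4.88% and 7.32%, where 4.33% and 7.81% of all genes were). The 8 members not tested, for low counts, were Kcna7, Kcnab3os, Kcng3, Kcnj14, Kcnj15, Kcnj4, Kcnk7 and Kcnn4, of which Kcnj4 (57 counts), Kcnj15 (52) and Kcnn4 (40) had most. The members tested are thus those with enough counts, not all members.

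The signs of the fold changes leaned to lower values. The log2 fold change, SnoN cKO minus wild type, was negative for 56 and positive for 26 of the 82 members tested, with a median of -0.06, where 49.04% of all genes were positive with a median of -0.002. The range ran from -0.92 (Kcnmb1) to 0.36 (Kcnn1), and 41 of the 82 lay within 0.1 of 0. With no filter on low counts, 57 of 90 members were negative, with a median of -0.05. Leaving out each library in turn, 54 to 59 were negative; without SnoN cKO 2 the count was 55 of 82. Members share libraries, so these signs are not independent of each other, and the lean is given with no test. The tested brainstem, nuclei, choroid plexus and meningeal markers were negative too (8 of 8, 7 of 7, 10 of 10 and 6 of 6). Markers of granule precursors (7 of 8), maturing granule neurons (6 of 9) and Purkinje cells (8 of 9) were mostly positive. So were those of astrocytes and Bergmann glia (7 of 9), endothelium and pericytes (6 of 9) and microglia (8 of 8). Oligodendrocyte and GABAergic interneuron markers were mostly negative (7 of 10 and 3 of 5). The part of any list in the lean was not tested. For 24 of the 68 genes named by the rule and reported here the sign changed in at least 1 alternative.

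**Figure D2:**
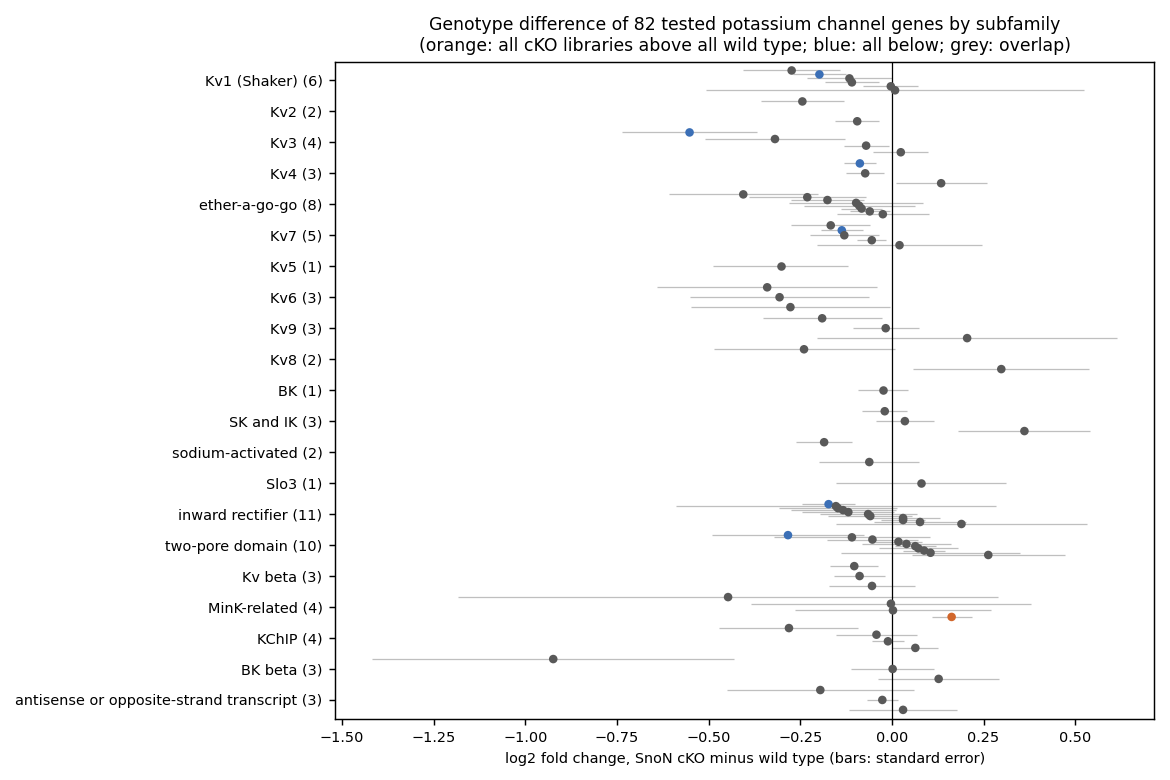
Log2 fold change, SnoN cKO minus wild type, of the 82 tested members by subfamily, with its standard error as a bar. Blue points have all SnoN cKO libraries below all wild type libraries (6 members), the orange point above (Kcne1l), and grey points overlap.

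The pore-forming Kv genes were negative in 24 of 28 tested members, with a median log2 fold change of -0.10, and in 23 to 25 of 28 with a library left out. The 8 brainstem and 7 nuclei markers tested, all negative with medians of -1.09 and -0.41, shared that sign. Markers of granule precursors were positive in 7 of 8 (median 0.11). Those of maturing granule neurons were positive in 6 of 9 (median 0.05) and those of Purkinje cells in 8 of 9 (median 0.07). The part of these lists was not tested. Kv1 (Shaker) subunits, which set the threshold and the repolarization of axons, were negative in 5 of 6. Kcna6 stood at 41.6, 45.9 and 43.4 CPM in wild type libraries against 38.1, 34.5 and 41.5 CPM in the SnoN cKO group, with the highest SnoN cKO library just under the lowest wild type library (log2 fold change -0.20, SE 0.07, edgeR unadjusted p = 0.021). Without SnoN cKO 2 the value was -0.13. Kcna1, the subunit of axons and basket cell terminals, was 60.2 ± 6.77 CPM in wild type against 60.0 ± 2.15 CPM after SnoN knockout (SD, n = 3 each), and Kcna2, its partner, 25.9 ± 0.352 and 24.0 ± 1.72 CPM (SD, n = 3 each). Both overlapped between genotypes.

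The Kv3 group carries the fast currents of rapidly firing neurons. Kcnc1, which is abundant in granule cells, was 195 ± 16.2 against 186 ± 8.71 CPM (SD, n = 3 each). Kcnc2 differed most among members of at least 5 CPM. Its levels were 7.35, 6.64 and 4.99 CPM in wild type libraries against 4.54, 3.52 and 4.87 CPM in the SnoN cKO group, means of 6.33 ± 1.21 and 4.31 ± 0.704 (SD, n = 3 each). Every SnoN cKO library was below every wild type library, though SnoN cKO 3 and wild type 3 lay close, and the log2 fold change was -0.55 (SE 0.19, edgeR unadjusted p = 0.014, adjusted p = 0.637). Leaving out each library in turn gave -0.69 to -0.42. The markers of cerebellar nuclei and unipolar brush cells, 7 genes in all, summed to 273, 270.3 and 235 CPM in wild type libraries. In the SnoN cKO group they summed to 208, 149 and 221 CPM. Wild type 1 was high for Lhx9 (22.4, 4.58 and 5.30 CPM in the wild type libraries) and Lhx2 (7.90, 2.26 and 2.96 CPM). No other marker of the list was highest in wild type 1. Of those 7 markers, 7 had a negative log2 fold change and none was at 0; their part in the Kcnc2 value was not tested. Kcnc4 was 22.7, 32.2 and 22.4 CPM in wild type libraries against 21.9, 14.9 and 25.3 CPM in the SnoN cKO group (log2 fold change -0.32, SE 0.19), with wild type 2 high, SnoN cKO 2 low and the rest overlapping. The value of Kcnc4 was -0.12 without wild type 2 and -0.13 without SnoN cKO 2.

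Kv2 and Kv4 genes give the delayed rectifier and the A-type currents of somata and dendrites. Kcnd2, the Kv4 subunit known from granule neurons, was 130.2, 128 and 132 CPM in wild type libraries against 119.7, 122 and 126 CPM in the SnoN cKO group. The genotypes did not overlap, and the log2 fold change was -0.09 (SE 0.04, edgeR unadjusted p = 0.071), which is small and missed the unadjusted threshold. Kcnd3 was 118 ± 6.05 against 112 ± 2.90 CPM and Kcnb2 64.0 ± 3.42 against 59.99 ± 3.57 CPM (SD, n = 3 each), both with overlapping libraries. Kcnd1, the remaining Kv4 gene, went the other way at 10.84 ± 1.35 against 11.96 ± 1.24 CPM (SD, n = 3 each), also with overlapping libraries. Its log2 fold change was 0.13 (SE 0.12), and 0.05 to 0.24 with a library left out.

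The Kv7 genes carry the muscarine-sensitive M current. Kcnq3, a subunit of the neuronal M channels, was 105.9, 106.7 and 101.4 CPM in wild type libraries against 100.6, 87.7 and 97.4 CPM in the SnoN cKO group, so that only a small gap lay between wild type 3 and SnoN cKO 1, with SnoN cKO 2 furthest down. Its log2 fold change was -0.14 (SE 0.06, edgeR unadjusted p = 0.038), and -0.08 without SnoN cKO 2. The 8 ether-a-go-go genes, which include the Erg channels, were all negative, with a median of -0.09. Their log2 fold changes ran from -0.41 (Kcnh5, -0.63 to -0.28 with a library left out, 4.31 ± 0.372 against 3.29 ± 0.891 CPM; SD, n = 3 each) to -0.02 (Kcnh4), and in all 8 the libraries of the genotypes overlapped. With 1 library left out, 6 to 8 of the 8 were negative. Kcnh2, the Erg channel also known from the heart, was 44.6 ± 2.46 against 42.2 ± 0.236 CPM, Kcnh7 38.2 ± 0.534 against 36.7 ± 1.88 CPM and Kcnh1 18.04 ± 1.61 against 16.0 ± 1.06 CPM (SD, n = 3 each). Kcnq5, another Kv7 gene, was 38.8 ± 4.80 against 35.4 ± 3.32 CPM (SD, n = 3 each), again with overlapping libraries.

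The silent Kv subunits were low, and 7 of 9 tested were negative with a median log2 fold change of -0.24, which was -0.09 without wild type 2. The largest in absolute size were Kcng1 (-0.34, SE 0.30), Kcng4 (-0.31, SE 0.24), Kcnf1 (-0.30, SE 0.18) and Kcnv2 (0.30, SE 0.24), all under 10 CPM. With a library left out they ran from -0.52 to -0.20 for Kcng1, -0.45 to -0.18 for Kcng4, -0.41 to -0.12 for Kcnf1 and 0.11 to 0.56 for Kcnv2. Their libraries overlapped between genotypes. The most abundant silent subunit, Kcns2, was 17.1 ± 0.268 against 16.8 ± 1.36 CPM (SD, n = 3 each).

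Sodium- and calcium-activated channels were divided in sign. Kcnt1, a sodium-activated channel, was 49.7, 49.3 and 41.8 CPM in wild type libraries against 38.4, 41.6 and 43.7 CPM in the SnoN cKO group (log2 fold change -0.18, SE 0.08, edgeR unadjusted p = 0.038), with SnoN cKO 3 above wild type 3. Kcnma1, the pore of the BK channel that shapes Purkinje firing, was 61.6 ± 1.402 and 60.6 ± 5.78 CPM (SD, n = 3 each), and Kcnn2, the SK channel of Purkinje cells, 29.4 ± 1.51 and 29.0 ± 0.302 CPM (SD, n = 3 each). Kcnn3, another SK channel, was 49.9 ± 1.72 against 51.3 ± 5.70 CPM, and Kcnt2, the relative of Kcnt1, 9.83 ± 1.31 against 9.38 ± 1.18 CPM (SD, n = 3 each). None of these 4 separated the genotypes. Kcnn1 was the member with the highest positive value. Its levels were 7.90, 8.77 and 7.33 CPM in wild type libraries against 12.8, 7.51 and 10.7 CPM in the SnoN cKO group, with SnoN cKO 2 inside the wild type range (log2 fold change 0.36, SE 0.18, edgeR unadjusted p = 0.072). Without SnoN cKO 2 it was 0.54, and without SnoN cKO 1 0.19.

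Inward rectifiers include the glial channels Kcnj10 and Kcnj16 and the G protein-gated channels Kcnj3, Kcnj6 and Kcnj9 of neurons. Kcnj10, the potassium-uptake channel of astrocytes and Bergmann glia, was 110.8, 115 and 105 CPM in wild type libraries against 103, 86.2 and 104 CPM in the SnoN cKO group. The gap between the genotypes was narrow and SnoN cKO 2 was low (log2 fold change -0.17, SE 0.07, edgeR unadjusted p = 0.039); without SnoN cKO 2 it was -0.09. The summed CPM of 9 astrocyte and Bergmann glia markers ran from 4084 to 4138 in wild type and from 4270.0 to 4586 in SnoN cKO, and that of 10 oligodendrocyte lineage markers was 1535 to 1594 and 1350.0 to 1581. The glial markers did not share a direction. Of the 10 oligodendrocyte markers, 7 were negative, 2 of them at an unadjusted p under 0.05, and 3 were positive. Of the 9 astrocyte and Bergmann glia markers, 7 were positive, 5 of them at an unadjusted p under 0.05. In that list Slc1a2, a glutamate transporter, was 320.7, 344.6 and 328.6 CPM in wild type libraries against 303.0, 282.3 and 306.2 CPM in the SnoN cKO group. Gja1, a gap junction protein, was 216.5, 204.3 and 184.0 against 155.4, 159.1 and 195.4 CPM. Both had negative log2 fold changes at an unadjusted p under 0.05, like Kcnj10 in sign. The part of either glial list in the Kcnj10 value was not tested. Kcnj16 was 13.3 ± 1.86 and 12.05 ± 2.49 CPM (SD, n = 3 each), a log2 fold change of -0.15 that was 0.013 without SnoN cKO 2. The G protein-gated subunits Kcnj6 and Kcnj3, known from granule neurons, were 74.5 ± 11.9 against 76.1 ± 5.68 CPM and 63.8 ± 4.36 against 65.2 ± 2.99 CPM, and Kcnj8, the pericyte channel of the KATP family, was 9.19 ± 0.614 against 8.82 ± 0.737 CPM (SD, n = 3 each).

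The K2P channels had more positive than negative values: 7 of 10 tested were positive, with a median of 0.05. Kcnk1 was 75.2 ± 5.08 and 79.9 ± 2.89 CPM, Kcnk2 61.1 ± 4.18 and 63.8 ± 1.08 CPM, and Kcnk9, a leak channel of granule neurons, 33.5 ± 2.21 and 33.9 ± 1.38 CPM (SD, n = 3 each). Kcnk13, the resting potassium channel of microglia, was 2.59 ± 0.553 and 3.09 ± 0.368 CPM and Kcnk6 2.21 ± 0.296 and 2.41 ± 0.616 CPM (SD, n = 3 each). Kcnk10, a relative of Kcnk2, was 16.8 ± 2.43 against 17.7 ± 0.272 CPM and the acid-sensitive Kcnk3 16.0 ± 2.24 against 15.4 ± 1.61 CPM (SD, n = 3 each). All 7 of these overlapped. Kcnk5 went the other way at 2.11, 2.32 and 2.26 CPM in wild type libraries against 1.57, 2.10 and 1.82 CPM in the SnoN cKO group, with no overlap (log2 fold change -0.28, SE 0.21, edgeR unadjusted p = 0.203). These levels came from 27, 35 and 29 against 20, 31 and 31 counts, and wild type 1 and SnoN cKO 2 were nearly tied. With SnoN cKO 3 left out and the libraries rescaled, Kcnk5 no longer separated the genotypes. Without wild type 2 the class was even, 5 positive and 5 negative, with a median of 0.01. Whether the K2P and Kv classes differ was not tested.

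Auxiliary subunits held the only member whose SnoN cKO libraries all lay above wild type. Kcne1l (also known as Kcne5), a MinK-related subunit encoded on the X chromosome, was 44.8, 46.0 and 48.2 CPM in wild type libraries against 54.0, 52.2 and 49.6 CPM in the SnoN cKO group, means of 46.3 ± 1.69 and 51.9 ± 2.18 (SD, n = 3 each). The gap between the highest wild type and the lowest SnoN cKO library was small, and the log2 fold change was 0.16 (SE 0.05, edgeR unadjusted p = 0.014, adjusted p = 0.637). The libraries with high Xist and few or no Y-linked counts, wild type 1 and SnoN cKO 2, held 44.8 and 52.2 CPM of Kcne1l. Kcnip3, the calcium-binding KChIP partner of Kv4 channels, hardly varied, at 67.4 ± 1.64 and 66.9 ± 1.18 CPM, and Kcnab2, a Kv1 beta subunit, was 47.2 ± 1.91 and 44.4 ± 3.77 CPM (SD, n = 3 each). Kcnip1, a further KChIP, was 40.4 ± 2.77 against 42.3 ± 1.70 CPM, Kcnip4 14.6 ± 0.557 against 14.1 ± 1.87 CPM, Kcnab1 28.8 ± 0.293 against 26.8 ± 1.62 CPM and Kcnmb4, the neuronal BK beta subunit, 9.89 ± 0.850 against 9.90 ± 0.654 CPM (SD, n = 3 each). All of them overlapped between genotypes. Kcnmb1, a BK beta subunit of smooth muscle, had the lowest log2 fold change, -0.92 (SE 0.49, edgeR unadjusted p = 0.091), from 0.942 ± 0.408 to 0.468 ± 0.306 CPM with overlapping libraries; it was -1.65 without SnoN cKO 3 and -0.55 without wild type 3.

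**Figure D3:**
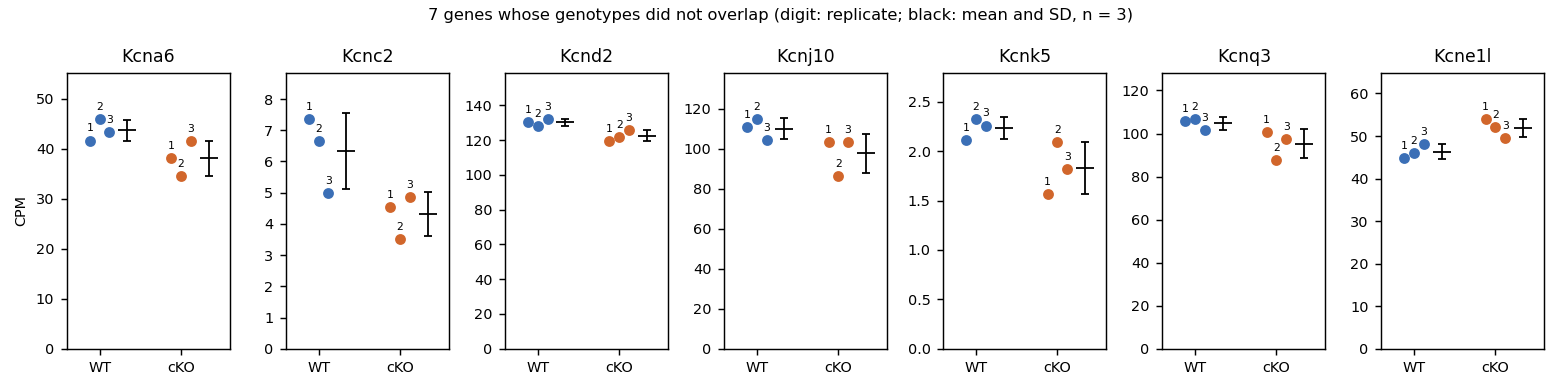
CPM by library for the 7 members whose genotypes did not overlap, wild type in blue and SnoN cKO in orange with the replicate number, and the mean with its SD (n = 3) in black. The 6 on the left were lower in SnoN cKO and Kcne1l higher; the gaps between genotypes were small beside the levels.

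Kcne2 and Kcnj13 are known from the choroid plexus, where Kcne2 is a partner of Kcnq1 and Kcnj13 is an inward rectifier of the epithelium. Kcne2 was 23.5, 23.5 and 11.5 CPM in wild type libraries against 20.4, 0.068 and 22.5 CPM in the SnoN cKO group, from 300, 354, 148, 261, 1 and 383 counts. SnoN cKO 2 held 1 count, and wild type 3 was the next lowest. Ttr, the choroid plexus transthyretin gene, was 3014, 3100 and 1641 CPM in wild type libraries against 3209, 17.3 and 2971 CPM in the SnoN cKO group. Per 1000 Ttr counts, Kcne2 gave 7.79, 7.59, 7.03, 6.37, 3.91 and 7.56 counts, so the ratio was similar in 5 libraries, and both genes were lowest in SnoN cKO 2. Kcnj13 was 5.71, 4.25 and 3.90 CPM in wild type libraries against 5.33, 1.08 and 5.98 CPM in the SnoN cKO group, and per 1000 Ttr counts gave 1.90, 1.37, 2.38, 1.66, 62.5 and 2.01 counts. Kcnj13 thus kept 16 counts in the library where Kcne2 kept 1. The part of reads from Gigyf2 in those 16 counts was not tested. The log2 fold change of Kcne2 was -0.45 (SE 0.74, edgeR adjusted p = 0.881) and turned to 0.13 without SnoN cKO 2. That of Kcnj13 was -0.15 (SE 0.44, edgeR adjusted p = 0.939) and turned to 0.30 without SnoN cKO 2. The 10 choroid plexus markers, all negative in the same fit, moved with these values; how far they account for them was not tested.

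**Figure D4:**
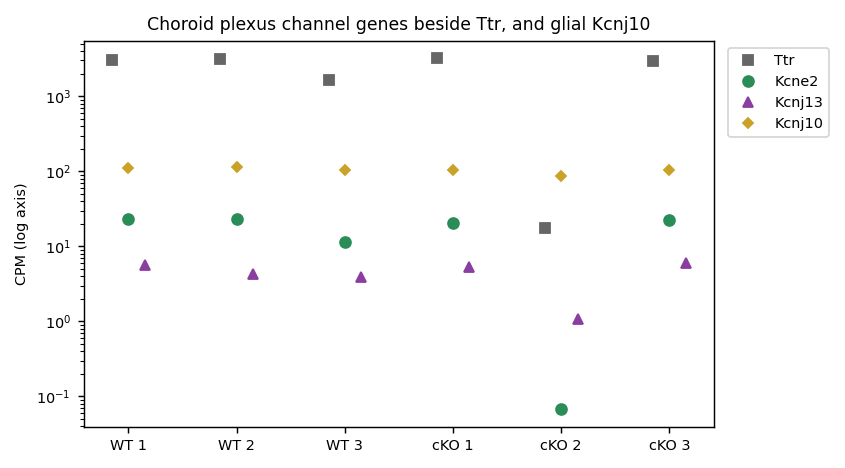
CPM on a log axis of Kcne2, Kcnj13, Ttr and Kcnj10 in each of the 6 libraries. Kcne2 and Ttr are near 0 and 17.3 CPM in SnoN cKO 2, while Kcnj10 stays at 86.2 CPM there.

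SnoN cKO 2 was the lowest of the 6 libraries for 20 of the 59 members at 5 CPM or more, where the other libraries were lowest for 5 to 10. Wild type 3 was the highest for 21 of the 59, where the other libraries were highest for 2 to 15. These counts were not made over all genes, so they are not shown to be particular to the members. SnoN cKO 2 lay below 0.8 of the median of the other libraries for Kcnc2, Kcnc4, Kcne2, Kcnip2, Kcnj12 and Kcnj16. Among the most stable members over all 6 libraries were Kcnq1ot1, with a coefficient of variation of 1.57%, Kcnip3 (1.94%) and Kcnn2 (3.43%). The most variable at 5 CPM or more were Kcne2 (55.6%), Kcnc2 (26.7%), Kcnc4 (24.2%) and Kcnn1 (23.5%).

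Partners and relatives of the channels whose symbols do not begin with Kcn were counted in the same way. Of 34 listed genes, among them the HCN channels, Kv1 scaffolds, Kv4 auxiliary proteins, ankyrins and calmodulins, 32 were tested, 0 had an edgeR adjusted p under 0.05, 9 were positive and 23 negative, with a median log2 fold change of -0.05. At an unadjusted p under 0.05, 6 were lower (18.75%, where 4.47% of all genes were) and 0 higher. The count in either direction was 1 without wild type 2 and 1 without SnoN cKO 2. Over all genes the share was 4.31% and 4.75% in those runs, against 7.68% in the main test. Ank2, an ankyrin that tethers membrane proteins, had the smallest p: it was 638, 666 and 667 CPM in wild type libraries against 592, 539.6 and 548 CPM in the SnoN cKO group, without overlap (log2 fold change -0.23, SE 0.05, edgeR unadjusted p = 0.00083, adjusted p = 0.637). DESeq2 gave Ank2 an adjusted p under 0.05. Dlg4, the scaffold that clusters Kv1 channels, was 187 ± 5.19 against 169.9 ± 8.75 CPM, Hcn3 41.7 ± 4.28 against 35.6 ± 2.72, Kctd16, an auxiliary protein of the GABA-B receptor, 2.69 ± 0.256 against 1.73 ± 0.683, and Hcn4 27.8 ± 4.32 against 22.6 ± 3.001 CPM (SD, n = 3 each).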

How the data were processed

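The values are raw counts of reads per gene, deposited for the 6 libraries as 1 table. The tools were STAR 2.0.4b, Subread (no version) and featureCounts 1.4.5 with build mm9, per the submitters' processing notes, which give no roles. For the annotation no source is at hand. Nearly all deposited Ensembl identifiers do not match the gene symbols beside them: among 40254 identifiers found in GENCODE M21, 97 paired with the same symbol. The counts followed the symbols (olfactory and vomeronasal receptor rows were under 10 counts for 98.68% by symbol, 55.26% by identifier), so genes were taken by symbol.

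Rows that repeated a symbol with identical counts were kept once (140 rows, 0.465% of counts). Genes were filtered with filterByExpr at a minimum count of 10 and tested with edgeR 4.0.16 in R 4.3.3 (quasi-likelihood test of genotype, two-sided, Benjamini-Hochberg over 15457 genes at 0.05). The spread between animals of a genotype, as the common biological coefficient of variation, was 9.71%. An exact permutation of 3 against 3 cannot go under p = 0.1 and was not used. SE is the fold change divided by the square root of the F statistic. CPM are counts per TMM-scaled library total. Whether the replicates came from separate litters is not stated, so p-values measure the spread between these animals. Alternatives were RLE scaling, DESeq2 1.42.0, limma-voom 3.58.1, no filter, all repeated rows kept, a replicate block and each library left out. The members, the lists and the tests were chosen with earlier results of these data known. Named genes were chosen from these, of which the text gives examples: the most abundant of each subfamily, those with an unadjusted p under 0.05, the 10 largest fold changes, genes known from particular cell types, Skil and up to 5 partners; Kcnk5, Kcnip2, Kcnj12 and the members under 10 counts were named after their values were seen. The procedure was tested on simulated counts. The values of 4 members are not reported here, though the counts and sums over members include them.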

Additional observations from a re-analysis of the deposited data

How the results depend on the processing

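Every alternative gave 0 members with an adjusted p under 0.05, and 54 to 59 members a negative log2 fold change. Over all genes, 6 had an adjusted p under 0.05 in DESeq2 and 39 with no filter on low counts. Genes at an unadjusted p under 0.05 numbered 668 in DESeq2, 1865 with no filter, 786 with the replicate block and 670 to 1505 with a library left out (1187 in the main test). Members at an unadjusted p under 0.05 ranged from 2 to 10 with a library left out, from 6. Their shares were 2.44% to 12.3%, where 4.31% to 9.68% of all genes were at that threshold. Non-overlapping members ranged from 8 to 16 lower and 2 to 9 higher with a library left out, from 6 and 1. Over all genes the shares were 9.99% to 14.3% and 10.8% to 14.2%. The lower share of members was above that of all genes in every such run except without SnoN cKO 2 (9.76% against 10%). Among partners, 1 gene (Ank2) had an adjusted p under 0.05 in DESeq2. With the replicate block 3 partners had an unadjusted p under 0.05, where 5.09% of all genes did. With a library left out 1 to 8 partners did, where 4.31% to 9.68% of all genes did. Per kb the shares of member RNA in wild type were 41.74% (pore-forming Kv), 21.42% (auxiliary), 14.64% (Kir), 13.94% (K2P), 4.857% (calcium- and sodium-activated), 2.121% (silent Kv) and 1.283% (noncoding). The log2 fold change of Kcne2 ran from -0.97 to 0.13 with a library left out, and was 0.13 without SnoN cKO 2; with limma-voom it was -2.36 and with the replicate block -0.79. With a library left out, the log2 fold change crossed 0 for a further 23 named genes, with ranges of -0.071 to 0.087 for Kcna1, -0.13 to 0.025 for Kcnab3, -0.24 to 0.061 for Kcnh3, -0.10 to 0.085 for Kcnh4, -0.027 to 0.013 for Kcnip3, -0.15 to 0.023 for Kcnip4 and -0.56 to 0.30 for Kcnj13. The ranges were -0.25 to 0.013 for Kcnj16, -0.022 to 0.074 for Kcnj3, -0.048 to 0.17 for Kcnj6, -0.11 to 0.0081 for Kcnj8, -0.0046 to 0.19 for Kcnk10, -0.16 to 0.034 for Kcnk3, -0.016 to 0.33 for Kcnk6 and -0.011 to 0.073 for Kcnk9. For the rest they were -0.10 to 0.052 for Kcnma1, -0.062 to 0.066 for Kcnmb4, -0.071 to 0.091 for Kcnmb4os2, -0.053 to 0.020 for Kcnn2, -0.016 to 0.14 for Kcnn3, -0.065 to 0.043 for Kcns2, -0.15 to 0.051 for Kcnt2 and -0.060 to 0.23 for Kcnu1. For Kcna1 the value was also 0.0049 with limma-voom, 0.0069 with no filter and 1e-04 with the replicate block. The other 44 named genes kept their sign in every alternative run. Same-numbered libraries, as deviations from their genotype mean, correlated at -0.04, -0.32 and -0.18, which gave no sign of pairing by replicate number. Deviations from a mean of 3 libraries sum to 0, so these correlations cannot show that the animals were unpaired. The replicate block gave 5 members at an unadjusted p under 0.05 (6.1%, where 5.09% of all genes were).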

Other observations

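Nearly all deposited identifiers belong to another gene than the symbol in the same row, so a channel looked up by its identifier would return the counts listed beside another symbol.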
